A study of Mus musculus with 6 samples.

Results

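The organic ion and ABC transporter genes are those of the SLC22 family of organic cation, carnitine and organic anion carriers, the SLCO family of organic anion transporting polypeptides (OATPs), and the ATP-binding cassette (ABC) families A to G. They were chosen by gene symbol, from Slc22a, Slco and Abca to Abcg names with their numbers, and 1 ABCB gene that fits this pattern was left out. By this rule 86 of the 31950 genes in the expression table were members, 23 of SLC22, 15 of SLCO and 48 of the ABC families.

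RNA sequencing compared 3 WT with 3 *β-catenin Δ(ex3)/+* livers, to ask which genes differ in livers with a constitutively active β-catenin. All 6 mice are labelled as C57BL/6 and 8 weeks old. In *β-catenin Δ(ex3)/+* livers, called mutant here, exon 3 is deleted from 1 allele of the β-catenin gene *Ctnnb1* and the other allele is normal. The study made such livers by Cre recombinase acting on a floxed exon 3, from an albumin-Cre transgene, from an adenovirus given intravenously, which leaves a mosaic, or from a tamoxifen-inducible Cre under the albumin promoter in hepatocytes. It writes *β-catenin lox(ex3)/+* for its adenovirus mice and *β-catenin Δ(ex3)/+* for livers after tamoxifen. The study's mice with the albumin-Cre transgene died before the labelled age of 8 weeks. Which of the other routes gave the sequenced livers is not stated beyond the name *β-catenin Δ(ex3)/+*. Whether the WT mice had a floxed allele, Cre, virus or tamoxifen is not given in the sources used here. Each library came from a separate liver, and the values are FPKM (fragments scaled by transcript length and by all mapped fragments). FPKM hold no counts, and the spacing of low values in single-exon genes put the depth near 24.4 to 24.7 M fragments for WT and 16.9 to 19.5 M for mutant livers.

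Hepatocytes take organic ions, drugs and hormones from the blood through SLC22 and OATP carriers in the sinusoidal membrane. They pass conjugates, phospholipid and sterols into bile through ABC pumps in the canalicular membrane, and return other conjugates to blood through further ABC pumps. Other ABC proteins work inside the cell, in mitochondria, peroxisomes and lysosomes, and a few have no membrane domain and act in translation.

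The groups also differed in sex-linked and age-related transcripts. *Xist*, transcribed from the inactive X chromosome, had 20.3, 22.2 and 21.1 FPKM in the WT livers and 0.0146, 0 and 0.0128 FPKM in the mutant livers. The Y-linked *Eif2s3y* had 0.0169, 0 and 0 FPKM in the WT livers and 9.94, 9.20 and 9.37 FPKM in the mutant livers, and *Uty* was listed at 0 in all WT livers. The sex of the mice is not in the labels, and by these transcripts the WT livers stood with females and the mutant livers with males, so that sex and genotype cannot be told apart. Of 10 male-biased liver genes 9 were tested and all 9 were higher in mutant livers, with sums of 40.3, 39.9 and 35.5 FPKM in WT and 1240, 1304 and 1287 FPKM in mutant livers and *Mup3* most abundant in mutant livers. Of 11 female-biased genes 7 were lower and 2 higher, with sums of 873, 927 and 880 FPKM in WT and 127, 134 and 136 FPKM in mutant livers and *Sult2a2* most abundant in WT livers. All 10 tested of 14 genes of the young liver were lower in mutant livers. They summed to 3878, 3906 and 3945 FPKM in WT and 8.44, 9.46 and 9.12 FPKM in mutant livers, with *H19* most abundant in WT livers, although both groups are labelled with the same age. *Igf2* was listed at 0 in all mutant livers and had 836, 803 and 847 FPKM in the WT livers. What part sex or developmental age has in the transporter values was not tested.

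Markers of other cells moved between the groups as well. Bulk RNA does not separate fewer cells of a type from less RNA per cell. Of 7 hepatocyte markers 1 was higher and 2 lower in mutant livers, with sums of 74478, 75115 and 71724 FPKM in WT and 38601, 38826 and 38532 FPKM in mutant livers and *Alb* most abundant. The lower sum came from *Alb*, *Apoa1* and *Ttr*, while *Tat*, *Cps1*, *Serpina1c* and *Cyp3a11* were higher past the adjusted p, *Tat* past 2-fold, and the median log2 fold change of the list was 0.23. Kupffer cell and macrophage markers summed to 215, 217 and 222 FPKM in WT and 497, 490 and 489 FPKM in mutant livers, with 3 of 7 higher, 1 lower and *Cd5l* most abundant. Stellate cell markers summed to 90.2, 92.3 and 92.1 FPKM in WT and 37.7, 32.2 and 39.5 FPKM in mutant livers, with 3 of 7 lower and *Colec11* most abundant. Liver endothelial cell markers summed to 87.7, 90.3 and 89.3 FPKM in WT and 58.3, 58.7 and 59.8 FPKM in mutant livers, with 2 of 7 lower and *Clec4g* most abundant. Cholangiocyte markers summed to 51.1, 49.6 and 48.1 FPKM in WT and 25.0, 24.9 and 25.3 FPKM in mutant livers, with 1 of 5 tested lower, *Spp1* most abundant, and *Cftr* under 0.05 FPKM in each liver. Erythroid genes summed to 3609, 3310 and 3654 FPKM in WT and 1873, 1836 and 1811 FPKM in mutant livers, with 5 of 9 tested lower, and *Kel*, *Rhag* and *Tspo2* at 0 in the mutant livers. T, B and NK cell markers summed to 16.0, 17.5 and 17.3 FPKM in WT and 8.86, 10.3 and 9.61 FPKM in mutant livers, with 2 of 5 tested lower and *Cd79a* most abundant in WT livers. Adipocyte markers summed to 7.97, 7.97 and 7.49 FPKM in WT and 74.9, 70.6 and 72.1 FPKM in mutant livers, with 3 of 4 tested higher, *Fabp4* most abundant in WT and *Cfd* in mutant livers, and *Adipoq*, *Plin1* and *Lep* at or near 0 in WT livers. The part of these cells in the transporter values was not tested. Several SLC22 members are known from the kidney, but 5 of 7 kidney tubule markers were listed at 0 in all 6 livers and the list summed to at most 0.0474 FPKM in any liver. Of 6 gut epithelium markers, *Cdx1*, *Sis* and *Alpi* were listed at 0 in every liver, and the sums of 147, 151 and 153 FPKM in WT and 27.6, 23.5 and 22.3 FPKM in mutant livers came mostly from *Fabp2*.

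The 50 members that averaged 0.5 FPKM or more across the 6 livers were tested on log2(FPKM + 1) with limma among all 13243 genes past this filter. A gene was called where its Benjamini-Hochberg adjusted p was under 0.05 and its change at least 2-fold on that scale, which understates the change of genes with low FPKM. Of the 50 tested members 11 rose and 8 fell in mutant livers, 22.0% and 16.0%, where 8.17% and 4.52% of all genes tested were called higher and lower. At any fold change, 41 of the 50 (82.0%) passed the adjusted p, against 57.0% of all genes tested, and 22 of these 41 were under 2-fold, 18 of them higher and 4 lower. Every mutant liver was above every WT liver for 32 members (64.0%, against 43.0% of all genes tested) and below for 12 (24.0%, against 23.0%), while 6 overlapped. The shares of members above or below are read as counts, since 36 members did not pass the filter and a member high in 1 group only passes through that group. The median log2 fold change was 0.30 over the tested members and 0.144 over all genes tested, and the median absolute log2 fold change 0.51 and 0.35. Exact permutation tests of single members cannot go below p = 0.1 with 3 livers against 3, and all called members were at that smallest p.

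The direction of some small differences rests on the scaling. Median-ratio scaling moved the log2 fold changes of all genes by a median of -0.13, and quantile normalization by -0.17. Among all genes tested, 1082 were called higher and 598 lower as deposited, 868 and 735 with median-ratio scaling, and 797 and 812 with quantile normalization. Among members, both scalings left 8 higher and 8 lower, and the 3 no longer called were *Slc22a3*, *Abca3* and *Abcb6*. Replicates lay close together, with a median coefficient of variation over the tested members of 4.45% in WT and 4.61% in mutant livers.

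**Figure D1:**
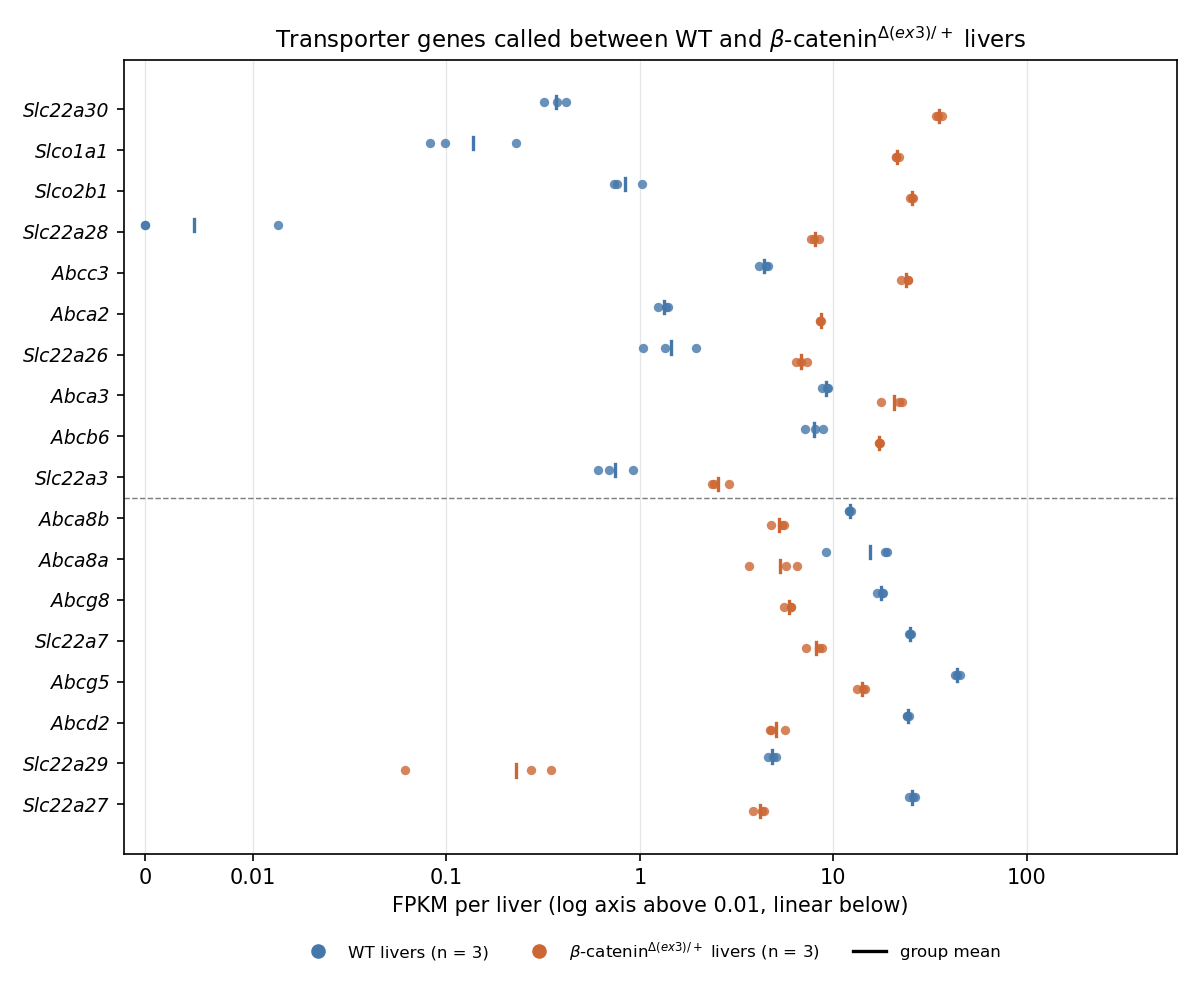
FPKM of 18 of the called transporter genes in each liver, on an axis that is logarithmic above 0.01 FPKM and linear below it. Blue points are WT and orange points mutant livers, ticks are group means, and the dashed line parts the genes called higher (above) from the 8 called lower. The groups overlap for none of these genes, and *Abca8a* has 1 WT liver, replicate 1 at 9.14 FPKM, apart from the other WT livers at 18.9 and 18.4 FPKM.

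The SLCO family summed to 79.0 ± 2.03 FPKM in WT and 187 ± 3.11 FPKM in mutant livers (SD, n = 3 each), a ratio of 2.36 that was 2.09 after median-ratio scaling. The ABC families summed to 313 ± 7.76 FPKM in WT and 320 ± 1.86 FPKM in mutant livers (SD, n = 3 each), a ratio of 1.02 that was 0.906 after median-ratio scaling. These sums were not tested.

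Among organic cation and carnitine carriers *Slc22a3*, on chromosome 17, encodes the low-affinity monoamine and cation carrier OCT3. It had 0.608, 0.917 and 0.693 FPKM in WT and 2.87, 2.41 and 2.35 FPKM in mutant livers. All mutant livers were above all WT livers at these low levels, with a log2 fold change of 1.03 (limma adjusted p = 0.000252, standard error 0.096). That call was lost without WT replicate 1 (0.97) and without mutant replicate 1 (0.96). Exons of *Slc22a3* share 420 bases, 9.3% of its exonic length, with the plasminogen gene *Plg* on the opposite strand, and whether strand was used in the counting is not given in the sources used here. *Plg* had 757, 736 and 755 FPKM in WT and 497, 486 and 497 FPKM in mutant livers, the opposite direction. *Slc22a2*, the OCT2 gene beside it, stayed at or below 0.0806 FPKM in each liver and was not tested.

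*Slc22a5* encodes OCTN2, the sodium-dependent carnitine carrier. It had 3.27, 3.42 and 3.27 FPKM in WT and 4.52, 4.72 and 4.94 FPKM in mutant livers. The groups did not overlap, but the log2 fold change of 0.41 (limma adjusted p = 0.00107) was under 2-fold. Of its transcripts, 17.1% of all 75-base windows also occur in transcripts of its neighbour *Slc22a21*, so fragments of the pair can be mixed. *Slc22a4*, next in that run on chromosome 11, had 0.0692, 0.0890 and 0.0478 FPKM in WT and 0.363, 0.307 and 0.453 FPKM in mutant livers, under the filter for the test.

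Organic anion carriers of the SLC22 family went both ways. All 6 tested members were called, 3 higher and 3 lower, and the summed FPKM of the 11 members in the table changed far less than its parts, with 57.4, 57.7 and 58.6 FPKM in WT and 64.0, 60.6 and 62.6 FPKM in mutant livers. The ratio of these sums was 1.08 as deposited and 0.955 after median-ratio scaling. In WT livers the group consisted mostly of *Slc22a27* and *Slc22a7*, whereas in mutant livers *Slc22a30* made up 56.1% of it and 0.637% of it in WT livers.

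*Slc22a7* encodes OAT2, an organic anion carrier of the sinusoidal membrane. It had 25.2, 24.6 and 25.0 FPKM in WT and 8.76, 7.23 and 8.42 FPKM in mutant livers. All mutant livers were lower than all WT livers, and the log2 fold change was -1.51 (limma adjusted p = 1.37e-05, standard error 0.072). The other 5 called genes lie side by side on chromosome 19, in a run of rodent-expanded organic anion carriers that are all transcribed from the minus strand.

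From the low-coordinate end, *Slc22a19* (chr19:7673061-7711310) was listed at 0 in all 6 livers. *Slc22a26* (chr19:7781041-7802667) had 1.96, 1.35 and 1.04 FPKM in WT and 6.38, 7.27 and 6.82 FPKM in mutant livers, a log2 fold change of 1.69 (limma adjusted p = 0.000157, standard error 0.14). The WT livers were spread over nearly a doubling, yet all lay below the mutant livers. *Slc22a27* (chr19:7864388-7966027) had 24.5, 25.8 and 26.4 FPKM in WT and 3.83, 4.26 and 4.38 FPKM in mutant livers, a log2 fold change of -2.37 (limma adjusted p = 9.57e-07, standard error 0.060). It was the most abundant gene of the run in WT livers. *Slc22a28* (chr19:8062209-8131982) was listed at 0 in WT replicates 1 and 2, had 0.0135 FPKM in WT replicate 3 and 8.38, 7.70 and 7.96 FPKM in mutant livers. The log2 fold change was 3.17 on the log2(FPKM + 1) scale (limma adjusted p = 2.07e-07, standard error 0.055), from WT livers that were empty or nearly so.

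*Slc22a29* (chr19:8160165-8218899) had 4.59, 4.90 and 5.04 FPKM in WT and 0.274, 0.0609 and 0.348 FPKM in mutant livers, a log2 fold change of -2.26 (limma adjusted p = 1.14e-05, standard error 0.10). It thus lay between 2 genes with the opposite direction, at a distance of 28183 bases from *Slc22a28*. *Slc22a30* (chr19:8335371-8405111) had 0.416, 0.320 and 0.371 FPKM in WT and 36.4, 34.0 and 34.6 FPKM in mutant livers, and its log2 fold change of 4.72 (limma adjusted p = 4.43e-08, standard error 0.053) was the largest among the tested members on this scale. With a pseudocount of 0.1, *Slco1a1* (6.55) and *Slc22a28* (6.28) were above it (6.23). Beyond it *Slc22a8* (chr19:8591254-8611834), which encodes OAT3, had 0.679, 0.765 and 0.693 FPKM in WT livers and was listed at 0 in all 3 mutant livers. Its mean over the livers was 0.356 FPKM, so that it was tested only in the fit without an expression filter (log2 fold change -0.78, limma adjusted p = 5.29e-05).

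These paralogs are alike in sequence, and fragments may have been assigned to the wrong copy. Of the 75-base windows in *Slc22a28* transcripts, 44.2% also occur in *Slc22a30* transcripts, and 25.3% the other way. *Slc22a27* and *Slc22a29* share 13.2% and 11.8% of their windows with each other. So 2 genes that rose are close copies of each other, and 2 that fell share stretches, and how each pair is split is uncertain. *Slc22a26* shares 2.75% of its windows with any other gene.

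**Figure D2:**
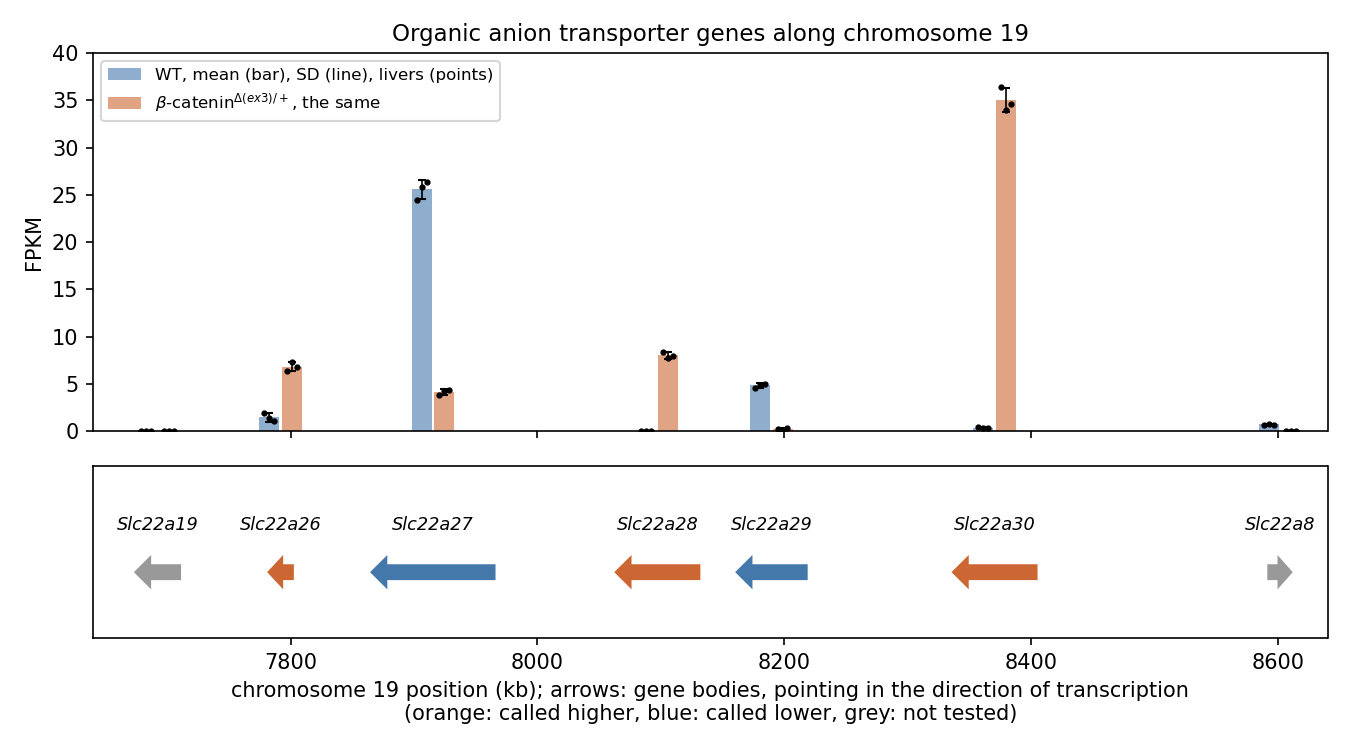
Organic anion transporter genes along chromosome 19, with FPKM in WT (blue) and mutant (orange) livers above and the gene bodies below, drawn to scale against position in kb. Bars are means, lines SD and points the 3 livers of a group. *Slc22a26*, *Slc22a28* and *Slc22a30* were higher and *Slc22a27* and *Slc22a29* lower in mutant livers, in alternation along the chromosome, and *Slc22a19* and *Slc22a8* were not tested.

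RefSeq promoter windows (build GRCm38.p6), of which the 250 bases before the RefSeq start farthest upstream were used, were found for 69 of the 86 members and 15 of the 19 called ones. RefSeq starts can differ from those of the expression table, and for 60 of the 69 the first 30 bases after the start occur in a GENCODE transcript of the gene. The TCF/LEF core was searched as CTTTGAT or CTTTGAA on both strands, since β-catenin acts with TCF/LEF factors. None of the 15 called members with a window held either form, 5 of the 69 members (7.25%) did, and 7.69% of all 27025 promoters did. The 5 were *Abcb1a*, *Abcc5*, *Abcb5*, *Slc22a12* and *Slco1a6*, and a window without these letters says nothing of sites elsewhere.

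The windows of the chromosome 19 run were compared because its members moved in opposite directions, a choice made after their values were seen. *Slc22a28* and *Slc22a30*, which both rose, were identical at 238 of 244 aligned bases (97.5%), with 12 gap bases. *Slc22a29*, which fell, was identical to *Slc22a28* at 175 of 231 aligned bases (75.8%) and to *Slc22a30* at 175 of 221 (79.2%). The other pairs of the run lay between 55.0% and 71.7%. The 3 closest windows are printed on the minus strand of GRCm38.p6, at chr19:8131983-8132232 for *Slc22a28*, chr19:8405106-8405355 for *Slc22a30* and chr19:8218901-8219150 for *Slc22a29*, with the longest stretch shared by all 3, of 16 bases, in capitals. That stretch ends 61, 67 and 43 bases before the respective RefSeq starts.
Slc22a28: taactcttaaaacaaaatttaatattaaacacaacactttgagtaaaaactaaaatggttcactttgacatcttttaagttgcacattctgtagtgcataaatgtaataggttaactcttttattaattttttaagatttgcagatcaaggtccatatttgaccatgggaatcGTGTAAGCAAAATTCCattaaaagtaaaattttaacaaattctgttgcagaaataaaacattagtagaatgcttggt
Slc22a30: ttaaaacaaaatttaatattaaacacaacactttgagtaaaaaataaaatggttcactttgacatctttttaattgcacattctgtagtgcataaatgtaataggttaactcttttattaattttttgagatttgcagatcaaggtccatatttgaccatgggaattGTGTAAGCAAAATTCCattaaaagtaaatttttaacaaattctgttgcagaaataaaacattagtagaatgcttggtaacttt
Slc22a29: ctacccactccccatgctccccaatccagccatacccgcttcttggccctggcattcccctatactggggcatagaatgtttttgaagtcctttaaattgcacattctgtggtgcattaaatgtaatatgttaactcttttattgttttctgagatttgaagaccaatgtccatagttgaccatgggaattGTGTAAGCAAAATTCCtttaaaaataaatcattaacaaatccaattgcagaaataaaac

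The remaining SLC22 members differed less. *Slc22a18*, which lies in an imprinted region of chromosome 7, had 40.1, 39.3 and 41.7 FPKM in WT and 55.6, 55.7 and 55.9 FPKM in mutant livers. The mutant livers were all higher, by a log2 fold change of 0.45 (limma adjusted p = 0.000117), which is under 2-fold. *Slc22a23* had 14.3, 14.6 and 13.8 FPKM in WT and 10.2, 10.3 and 10.6 FPKM in mutant livers, a log2 fold change of -0.42 (limma adjusted p = 0.000380). *Slc22a15* lay between 0.735 and 0.809 FPKM in all livers, with overlapping groups (limma adjusted p = 0.989).

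The OATPs take up bile acids, bilirubin, hormones and drugs, and 2 of the 5 tested rose while none fell. *Slco1a1* (ENSMUSG00000041698, chr6:141907282-141946962, minus strand) encodes a hepatocyte uptake carrier of steroid conjugates that is known as male-predominant in mouse liver. It had 0.0988, 0.0824 and 0.230 FPKM in WT and 21.0, 21.0 and 21.8 FPKM in mutant livers. The gene was near absent from the WT livers and at an even level in the mutant livers, with a log2 fold change of 4.29 (limma adjusted p = 1.38e-07, standard error 0.067). Its neighbour *Slco1a4*, a related carrier 51111 bases away that is known as female-predominant, had 5.39, 5.02 and 5.38 FPKM in WT and 5.18, 5.45 and 5.36 FPKM in mutant livers. The groups overlapped, and the log2 fold change of 0.02 (limma adjusted p = 0.798) did not pass. Median-ratio scaling turned it to -0.13 and quantile normalization to -0.18 (limma adjusted p = 0.0240).

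*Slco2b1* (ENSMUSG00000030737, chr7:99657804-99711340, minus strand) encodes a widely expressed OATP for steroid sulfates and drugs. It had 0.733, 1.03 and 0.759 FPKM in WT and 25.5, 24.8 and 25.9 FPKM in mutant livers. The mutant mean was 30.2 times the WT mean, and the log2 fold change was 3.84 (limma adjusted p = 3.12e-07, standard error 0.074). *Slco1b2*, the main OATP of the mouse hepatocyte and one of the most abundant members, had 72.0, 68.0 and 68.9 FPKM in WT and 127, 131 and 131 FPKM in mutant livers. All mutant livers were above all WT livers, but the log2 fold change of 0.89 (limma adjusted p = 6.55e-06, standard error 0.036) lay just under 2-fold. *Slco2a1*, the prostaglandin carrier gene, had 2.61 ± 0.112 FPKM in WT and 4.18 ± 0.195 FPKM in mutant livers (SD, n = 3 each), also under 2-fold. Of the 10 OATP members not tested, 4 were listed at 0 in all livers, and *Slco3a1* was the most abundant at a mean of 0.490 FPKM.

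**Figure D3:**
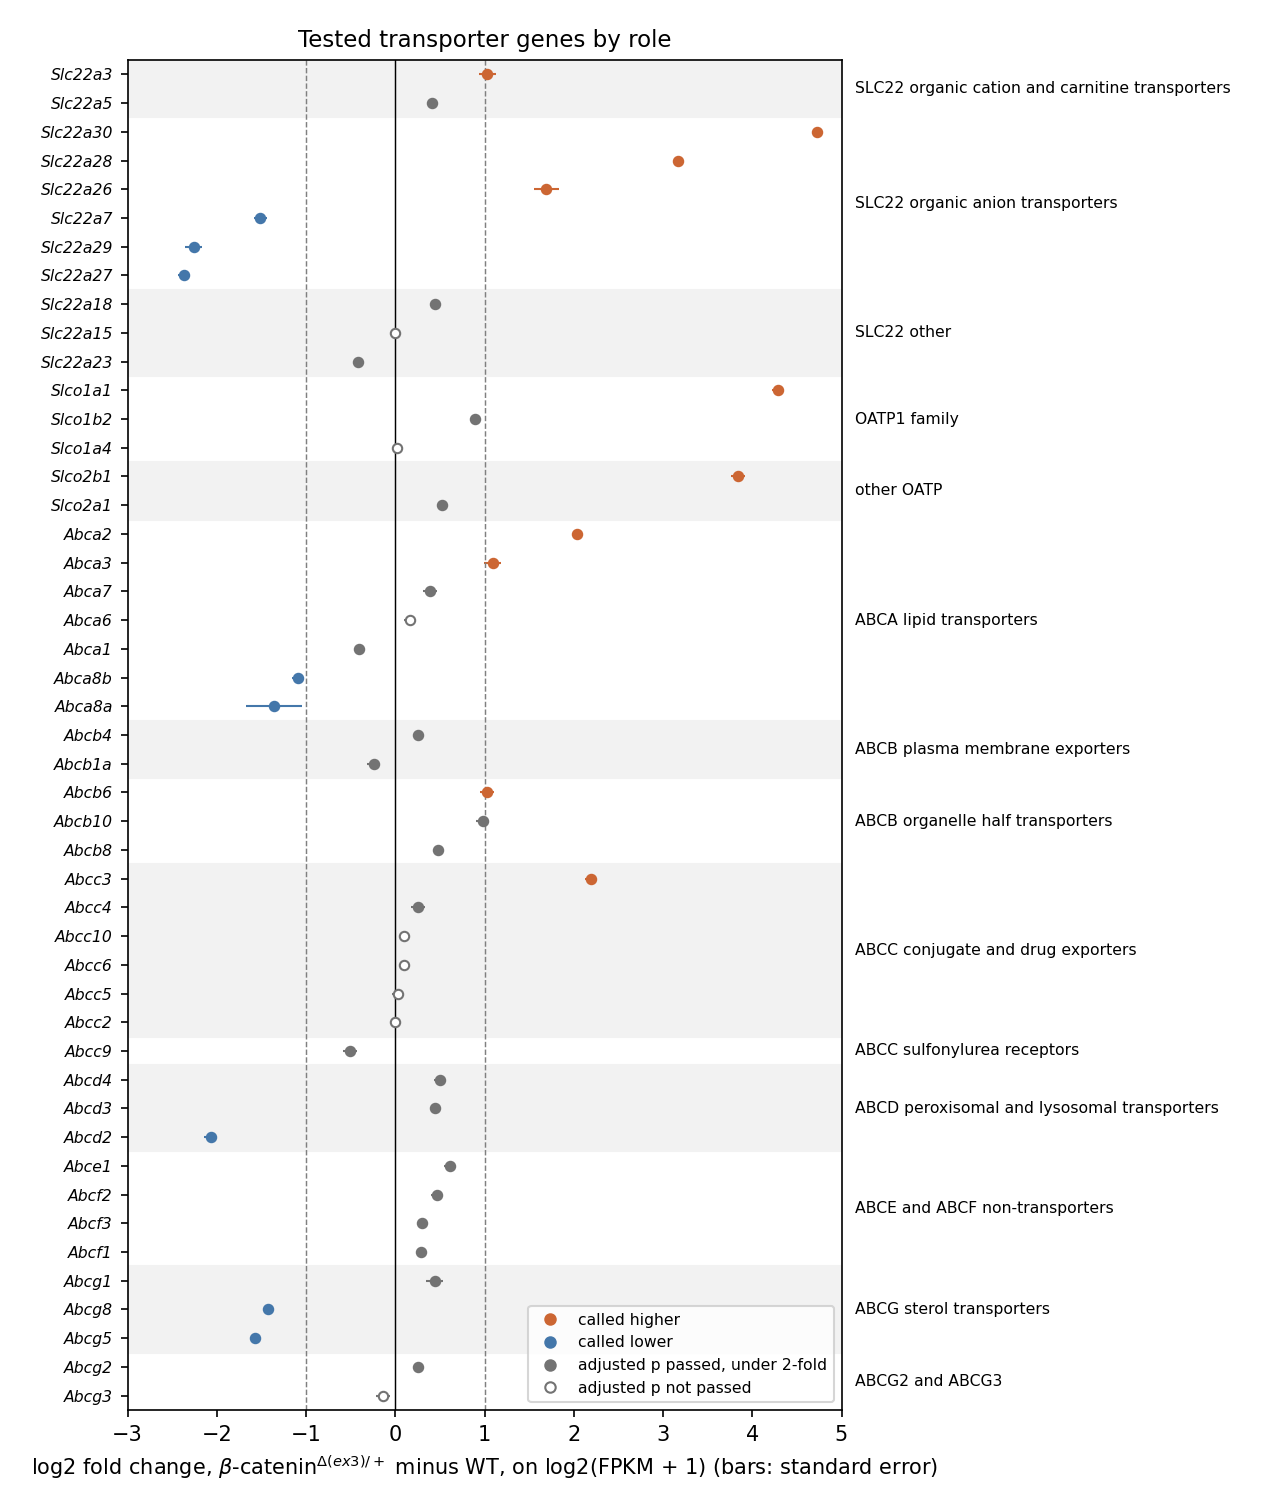
Log2 fold change of tested transporter genes, mutant minus WT on log2(FPKM + 1), with standard errors, grouped by role. Orange points were called higher and blue points lower, filled grey points passed the adjusted p under 2-fold, open points did not pass it, and dashed lines mark 2-fold. The SLC22 organic anion carriers run from -2.37 to 4.72, while all 4 ABCE and ABCF genes lie between 0.29 and 0.61.

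Of 6 tested conjugate and drug exporters of the ABCC family 1 was called. *Abcc3* (ENSMUSG00000020865, chr11:94343295-94392997, minus strand) encodes MRP3, which returns glucuronides and bile acid conjugates to the blood. It had 4.46, 4.14 and 4.59 FPKM in WT and 24.4, 22.3 and 24.3 FPKM in mutant livers. The mutant livers were all higher, with a log2 fold change of 2.19 (limma adjusted p = 1.2e-06, standard error 0.059). *Abcc2*, which encodes the canalicular conjugate pump MRP2, had 22.8, 22.6 and 21.9 FPKM in WT and 22.4, 22.1 and 22.6 FPKM in mutant livers. The groups overlapped as deposited (limma adjusted p = 0.943), while the log2 fold change was -0.17 after median-ratio scaling (limma adjusted p = 0.0112) and -0.30 after quantile normalization (limma adjusted p = 0.00145). *Abcc4*, the gene of the other sinusoidal pump MRP4, had 0.365, 0.577 and 0.448 FPKM in WT and 0.838, 0.693 and 0.700 FPKM in mutant livers, a log2 fold change of 0.25 (limma adjusted p = 0.0349) that did not pass after either scaling (0.0941 and 0.103) or in most fits with 1 liver left out. *Abcc6*, known for its link to ectopic calcification, had 20.9, 18.9 and 20.8 FPKM in WT and 21.8, 21.5 and 21.8 FPKM in mutant livers. It did not pass as deposited (log2 fold change 0.10, limma adjusted p = 0.151), and its sign was negative after both scalings, at -0.07 and, past the adjusted p, at -0.21 with quantile normalization (limma adjusted p = 0.0108).

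Other drug and phospholipid pumps were under 2-fold. *Abcb4*, whose product moves phosphatidylcholine into bile, had 12.5, 12.1 and 13.1 FPKM in WT and 15.1, 14.8 and 15.4 FPKM in mutant livers. The log2 fold change of 0.25 (limma adjusted p = 0.00510) did not pass after either scaling (limma adjusted p = 0.152 and 0.335) and was -0.05 after quantile normalization. *Abcg2*, the breast cancer resistance protein gene, had 4.17 ± 0.132 FPKM in WT and 5.14 ± 0.0446 FPKM in mutant livers (SD, n = 3 each), a log2 fold change of 0.25 (limma adjusted p = 0.00527) that did not pass after either scaling (limma adjusted p = 0.111 and 0.243). *Abcb1a*, a P-glycoprotein gene, had 0.791, 0.986 and 0.864 FPKM in WT and 0.581, 0.511 and 0.687 FPKM in mutant livers, a log2 fold change of -0.24 (limma adjusted p = 0.0337) that did not pass without a filter (0.0655) or in most fits with 1 liver left out (up to 0.0923). Its paralog *Abcb1b* had 0.0318, 0.0370 and 0.0570 FPKM in WT and 0.190, 0.151 and 0.288 FPKM in mutant livers and was under the filter. Of the *Abcb1a* windows 11.9% occur in *Abcb1b* as well.

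The sterol half-transporters ABCG5 and ABCG8 work as an obligate pair that exports cholesterol into bile, and both genes fell. *Abcg5* (ENSMUSG00000040505, chr17:84658234-84683011, minus strand) had 43.4, 42.6 and 45.0 FPKM in WT and 14.5, 13.3 and 14.2 FPKM in mutant livers. *Abcg8* (ENSMUSG00000024254, chr17:84676302-84700333, plus strand) had 16.8, 18.0 and 17.9 FPKM in WT and 6.02, 5.58 and 6.01 FPKM in mutant livers. Every mutant liver was below every WT liver for both, with ratios of the group means of 0.320 and 0.334. The log2 fold changes were -1.57 (limma adjusted p = 2.04e-06, standard error 0.048) for *Abcg5* and -1.43 (limma adjusted p = 4.62e-06, standard error 0.053) for *Abcg8*. The annotated bodies overlap because a transcript of *Abcg8* starts inside *Abcg5*, and their exons share 82 bases on opposite strands. *Abcg1*, a sterol exporter of other cells, had 1.70, 1.83 and 1.77 FPKM in WT and 3.30, 2.42 and 2.56 FPKM in mutant livers, which was the other direction, with a log2 fold change of 0.44 (limma adjusted p = 0.0103).

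The main starts of *Abcg5* and *Abcg8* face away from each other across 109 bases, which are printed from the plus strand of GRCm38.p6, chr17:84683012-84683120, because the 2 genes that flank them fell together. Capitals mark the GATA core AGATAA in its reverse complement TTATCT, searched on both strands after the sequence had been seen. It occurs 2 times here, and in the 109 bases before the start of the 27025 promoters 0.170% hold it at least 2 times and 4.02% at least once.
Abcg5 to Abcg8: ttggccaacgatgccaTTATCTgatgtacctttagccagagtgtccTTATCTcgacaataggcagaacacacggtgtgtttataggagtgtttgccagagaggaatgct

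The ABCA lipid transporters split evenly among those called, with 2 higher and 2 lower of 7 tested. *Abca2*, whose product handles lipids in lysosomes, had 1.36, 1.24 and 1.40 FPKM in WT and 8.55, 8.66 and 8.55 FPKM in mutant livers. The replicates were nearly level within each group, and the log2 fold change was 2.04 (limma adjusted p = 9.61e-07, standard error 0.052). *Abca3*, the phospholipid transporter of lung lamellar bodies, had 8.71, 9.32 and 9.41 FPKM in WT and 22.6, 21.7 and 17.7 FPKM in mutant livers. Its log2 fold change of 1.09 (limma adjusted p = 0.000195, standard error 0.096) came to 0.92 with median-ratio scaling and to 0.79 with quantile normalization, under the threshold in both. *Abca1*, which loads cholesterol onto high-density lipoprotein, had 13.1 ± 0.138 FPKM in WT and 9.61 ± 0.385 FPKM in mutant livers (SD, n = 3 each). That was a difference without overlap but under 2-fold (log2 fold change -0.41, limma adjusted p = 0.000542).

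*Abca8a* and *Abca8b* are the first 2 of 5 ABCA genes in a run of 405 kb on chromosome 11. *Abca8b* had 12.1, 12.4 and 12.1 FPKM in WT and 4.73, 5.40 and 5.53 FPKM in mutant livers, a log2 fold change of -1.09 (limma adjusted p = 3.16e-05, standard error 0.063). *Abca8a* had 9.14, 18.9 and 18.4 FPKM in WT and 3.65, 6.48 and 5.67 FPKM in mutant livers, so that WT replicate 1 and mutant replicate 1 were each the lowest of their group. Its log2 fold change of -1.36 (limma adjusted p = 0.0116, standard error 0.31) was -1.68 without WT replicate 1. The next genes did not follow, with 0.451 to 0.502 FPKM in WT and 0.413 to 0.486 FPKM in mutant livers for *Abca9* (not tested). *Abca6* had a mean of 9.18 FPKM in WT and 10.3 FPKM in mutant livers without overlap (log2 fold change 0.16, limma adjusted p = 0.0753), and was -0.12 after quantile normalization. *Abca5*, the last of the run, was under the filter with 0.344 to 0.578 FPKM over the 6 livers. *Abca17*, beside *Abca3* on chromosome 17, was listed at 0 in all livers.

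Peroxisomal ABCD half-transporters bring fatty acyl-CoA into peroxisomes, and they differed in direction. *Abcd2* had 23.9, 24.7 and 23.9 FPKM in WT and 4.69, 5.62 and 4.76 FPKM in mutant livers. All mutant livers were lower, with a log2 fold change of -2.07 (limma adjusted p = 3.27e-06, standard error 0.070). *Abcd3* had 30.6, 33.0 and 30.4 FPKM in WT and 43.7, 42.6 and 42.1 FPKM in mutant livers, a log2 fold change of 0.44 (limma adjusted p = 0.000375). *Abcd4*, which acts in the lysosomal handling of cobalamin, had 0.560, 0.577 and 0.566 FPKM in WT and 1.39, 1.10 and 1.17 FPKM in mutant livers.

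Among ABCB half-transporters of organelles, *Abcb6*, linked to porphyrin transport, had 7.11, 8.80 and 8.01 FPKM in WT and 17.5, 17.3 and 17.1 FPKM in mutant livers. The log2 fold change was 1.03 (limma adjusted p = 8.37e-05, standard error 0.075), and the call was lost without WT replicate 1 (0.96). Over 55.2% of its exonic length it overlaps a noncoding gene model, *Gm29253*, on the same strand, with a mean of 0.553 FPKM, so that fragments of the 2 cannot be told apart there. *Abcb10*, of the inner mitochondrial membrane, had 2.13, 2.15 and 2.43 FPKM in WT and 5.45, 5.78 and 4.97 FPKM in mutant livers, and its log2 fold change of 0.98 (limma adjusted p = 8.7e-05) was the nearest to 2-fold among the members not called. *Abcb8* had 5.61 ± 0.207 FPKM in WT and 8.20 ± 0.258 FPKM in mutant livers (SD, n = 3 each), under 2-fold. The ABCE and ABCF proteins lack membrane domains and work on ribosomes. Their genes were all higher without overlap, as were 43.0% of all genes tested, and all were under 2-fold. The log2 fold changes ran from 0.29 for *Abcf1* (-0.0029 after quantile normalization) to 0.61 for *Abce1*. *Abcc9*, a regulatory subunit of potassium channels, had 2.05 ± 0.0372 FPKM in WT and 1.14 ± 0.197 FPKM in mutant livers (SD, n = 3 each), a log2 fold change of -0.51 (limma adjusted p = 0.00249).

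Genes that work with these transporters were counted from lists of their own. Beside these counts, 8.17% of all genes tested were called higher and 4.52% lower. Of 14 further hepatobiliary carriers 13 were tested, 4 rose and none fell. Among them *Slc29a1*, a nucleoside carrier, had 18.3, 17.7 and 18.6 FPKM in WT and 62.0, 59.2 and 60.0 FPKM in mutant livers, and *Slc10a1*, the bile acid uptake carrier and most abundant of the list, had 138, 142 and 140 FPKM in WT and 105, 110 and 111 FPKM in mutant livers, under 2-fold. *Slc10a2*, the sodium-dependent bile acid carrier of ileum and bile duct, had 0.00976, 0 and 0.00985 FPKM in WT and 6.62, 6.15 and 6.24 FPKM in mutant livers. Of 17 receptors and factors that regulate transporters all were tested and 2 rose. *Hnf4a*, the hepatocyte factor and most abundant of that list in mutant livers, had 56.7, 58.6 and 57.6 FPKM in WT and 125, 124 and 126 FPKM in mutant livers, and *Nr1h3*, the oxysterol receptor LXRα, had 17.1, 17.7 and 18.1 FPKM in WT and 44.0, 37.9 and 38.4 FPKM in mutant livers. None of the 6 tested scaffold genes that hold transporters at the membrane was called, and 4 passed the adjusted p under 2-fold. Of the pericentral hepatocyte genes 8 of 14 rose and 1 fell, and of the periportal ones 6 of 12 rose and 2 fell. The 36 members not tested had mean values of at most 0.490 FPKM, 10 of them were listed at 0 in all livers, and for 27 the groups overlapped.

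These values are transcript levels in whole liver from 3 mice per group, and protein, membrane location and transport were not measured. Sex, by *Xist* and the Y-linked genes, ran along with genotype, and so did the genes of the young liver, so no difference here can be assigned to β-catenin alone. The sums of the ABC families and of the SLC22 organic anion carriers, and some small differences, such as those of *Abcb4* and *Abcf1*, turned with the scaling. Values of close paralogs on chromosome 19 rest on how shared fragments were assigned, and values under 0.5 FPKM on few fragments.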

How the data were processed

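The authors deposited FPKM per gene for 3 WT and 3 *β-catenin Δ(ex3)/+* livers, 1 table of 31950 genes. Per the authors' processing notes they used cutadapt 1.9, HISAT2 2.0.4, StringTie 1.3.4d, DESeq2 and edgeR; the genome build and the use of strand, which the library marks, are not given in the sources used here. Coordinates are those of the table and matched GENCODE M21 (GRCm38) for 71 of the 86 members. On log2(FPKM + 1), genes with a mean of at least 0.5 FPKM were fitted with limma 3.58.1 in R 4.3.3 (lmFit, eBayes with a trend) and adjusted by Benjamini-Hochberg over 13243 genes. The script was tested on simulated data of 3 against 3 livers. It called 54.7% of the 2.5-fold changes, 85.7% of the 4-fold changes and 0.00774% of the unchanged genes. Depth was estimated from steps that held 26.8% to 36.9% of the low values, against 4% by chance at a depth fixed in advance. The depth was picked to place the most values on the first step, which raises that share. Window sharing used GENCODE transcripts. Alternatives were a pseudocount of 0.1, other filters, scalings, variance models and thresholds, a replicate block, and each liver left out. The text names called members, 18 members with a known main role in hepatocytes, the 5 most abundant members and neighbours within 100 kb of a called one; 3 members are not reported here by name. Members and lists were chosen with earlier results of these data known. Sums, counts and sequences used Python 3.11.15 with numpy 2.4.6, pandas 2.3.3 and scipy 1.17.1, and figures matplotlib 3.10.9.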

Additional observations from a re-analysis of the deposited data

Results flagged for a closer look

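2 members under the expression filter, which the fit did not use, had every mutant liver above 0.1 FPKM and a mutant mean at least 3 times the highest WT liver. *Slc22a4*, the gene of the ergothioneine carrier OCTN1, had a mean of 0.374 FPKM in mutant livers, and the highest WT liver had 0.0890 FPKM. *Abcb1b*, a P-glycoprotein gene, had a mean of 0.210 FPKM in mutant livers, and the highest WT liver had 0.0570 FPKM. In the fit without a filter the log2 fold changes were 0.36 (limma adjusted p = 0.00257) and 0.21 (limma adjusted p = 0.0168), both under 2-fold on log2(FPKM + 1).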

How the results depend on the processing

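Under 13 other fits, 16 of the 19 called members stayed past both thresholds in the same direction. The exceptions were *Slc22a3*, *Abca3* and *Abcb6*, which fell under 2-fold after both scalings, *Slc22a3* and *Abcb6* also without WT replicate 1, and *Slc22a3* without mutant replicate 1. The 8 members called lower as deposited were the same 8 in each of these fits. With each liver left out in turn, 9 to 12 members were higher and 8 lower. A pseudocount of 0.1 gave 13 higher, *Abcb10* among those added. At any fold change 29 were higher and 12 lower, and at an absolute log2 fold change of at least 1.5, 8 were higher and 5 lower, as fewer or more genes meet a looser or stricter threshold. At an adjusted p under 0.01, 11 were higher and 7 lower. The replicate block left 11 higher and 8 lower. Livers with the same number correlated at 0.0268, 0.0213 and -0.0054 in their deviations from group means, and the other pairs between -0.036 and 0.0121. Deviations from means of 3 livers are tied to each other, so these values cannot decide whether livers with the same number share a batch. Depth is estimated, and values under 0.5 FPKM rest on few fragments.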
